A study of Mus musculus with 4 samples.

Results

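Splicing and RNA-binding factors were followed in mouse hippocampal CA1 over the first hours after contextual fear conditioning under MK-801. The set held every spot whose single annotated gene symbol starts with Hnrnp, Sf3a, Sf3b or Snrp, starts with Srsf, Prpf, Lsm or Rbm and a digit, or is Nova1 or Nova2. This gave 76 spots for 71 genes, of 16281 spots and 10698 named genes on the array. By class there were 12 Hnrnp, 7 Srsf, 5 Sf3, 12 Snrp, 9 Prpf, 10 Lsm and 15 Rbm genes, and Nova1. Nova2 was not analysed here. RefSeq lists 69 of the 71 genes as protein coding. The others are Rbm46os, a long noncoding RNA whose symbol marks the strand opposite Rbm46, and the pseudogene Snrp1c-ps2, so the symbol rule does not select proteins of the splicing machinery alone. In these bulk samples, fewer cells of a type and less RNA per cell could not be told apart.

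Arrays with 2 dyes compared MK C+S with MK. MK C+S mice were young C57BL/6J males that received MK-801, a blocker of the NMDA type of glutamate receptor, 1 h before conditioning. They then spent 2 min in a chamber new to them before a foot shock of 1 s at 0.5 mA, and this was done for 3 shocks in all. MK mice were young C57BL/6J males that received the same drug, so every sample carried MK-801, and no conditioning is described for them. Undrugged mice were not analysed here. The labelled dose, 300 micrograms per g body weight in both groups, is printed as given and is far above usual mouse doses. RNA was taken at 1, 2, 4 and 6 h after the last shock, with 1 array at each time and the red dye (Cyanine-5) always on MK C+S. Dye and conditioning could therefore not be told apart, and a value at a single time had no replicate. The labels do not say how many animals gave each RNA.

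Values were the deposited log ratios after centring each array on its median. Positive values probably stand for higher RNA in MK C+S than MK, taking red over green as the order, which no label states. Base 10 was assumed for the logs, and 2-fold then corresponds to 0.301. Log ratios carry no level of expression, so neither the identity of the tissue nor the abundance of a factor could be checked. An exact 0 was read as not measured. That removed 4 member spots at 1 h and 3 at 6 h, and 65 of the 71 genes had a value on all 4 arrays.

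Pre-mRNA splicing is carried out by the spliceosome, which is built from small nuclear RNAs and proteins. Sm proteins (from Snrpe, Snrpn and related genes) and LSm proteins form rings around those RNAs, the SF3A and SF3B complexes bind the branch site, and Prpf proteins carry the machinery through its rearrangements. SR proteins (Srsf genes) usually promote the use of an exon, hnRNP proteins often oppose them, and Nova proteins set the exon choice of many synaptic transcripts in neurons. Neurons also change exon choice with activity, which is the setting in which these factors are often studied.

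Most members lay near a ratio of 1 at all times. The median log ratio over members was -0.012 for 67 genes at 1 h, -0.041 for 71 at 2 h, 0.00072 for 71 at 4 h and -0.050 for 68 at 6 h, beside 0.0013, -0.00074, -0.00095 and -0.0062 over all genes. The quartiles of the members were -0.14 and 0.12 at 2 h and -0.13 and 0.10 at 4 h, wider than -0.10 and 0.092 and -0.099 and 0.091 for all genes. At 1 h they were -0.10 and 0.083, against -0.094 and 0.10, and at 6 h they were -0.13 and 0.056, narrower than -0.14 and 0.13 for all genes. Of the 71 genes, 22 passed 2-fold on at least 1 array (32.7% of all genes with values on at least 2 arrays did), 9 on at least 2 (background 7.5%) and 5 on at least 3 (background 1.31%). Those 5 were Lsm14a, Hnrnpr, Srsf10, Nova1 and Lsm12.

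**Figure D1:**
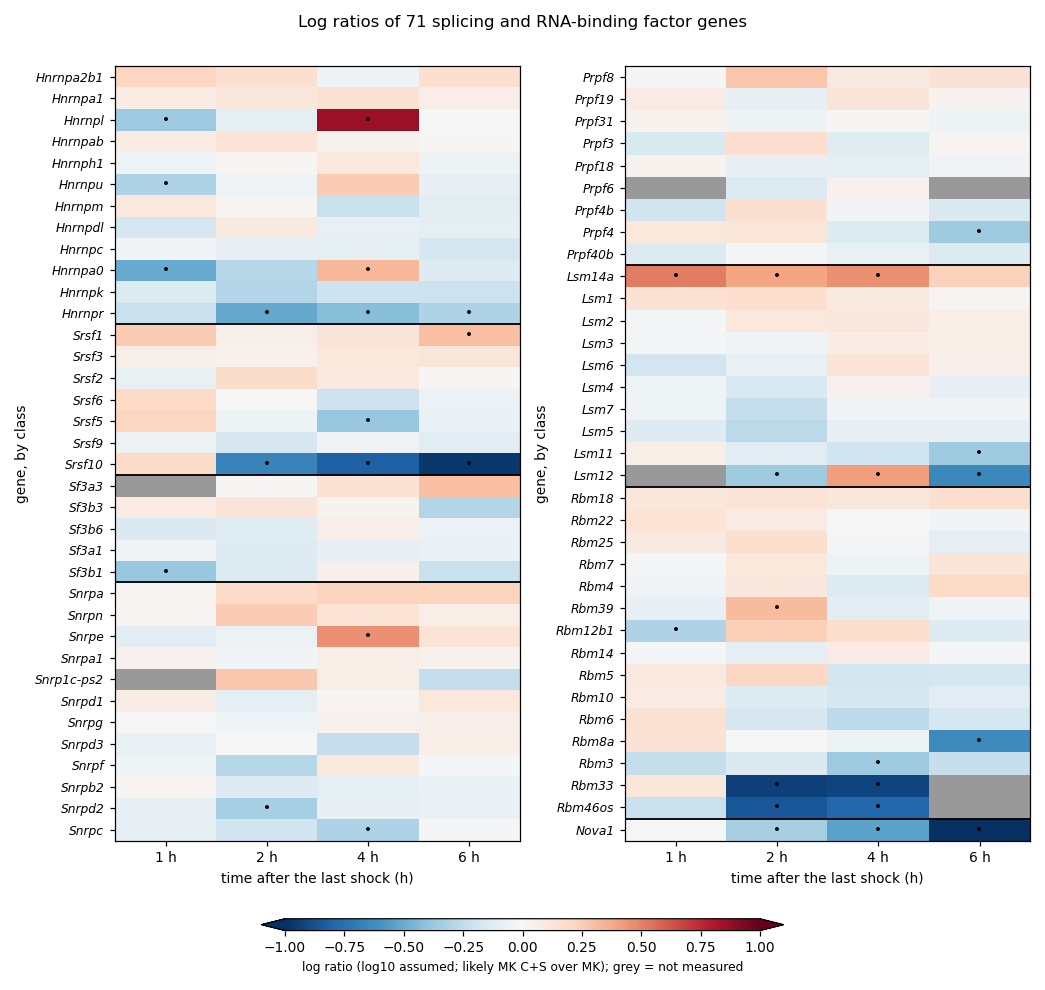
Log ratio of each of the 71 genes (rows, by class and by mean within a class) at each time (columns, 1 array each). Red is positive, blue negative, grey not measured, the colour scale ends at 1 and -1, and a dot marks 2-fold or more. Lsm14a is red in all 4 columns and Hnrnpr blue in all 4, while Srsf10 and Nova1 turn blue after 1 h.

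At 1 h, 1 member (Lsm14a) of 67 was above 2-fold, where 5.12% of all genes were, and 5 were below it, where 3.35% of all genes were. The lower 5 were Hnrnpa0, Sf3b1, Hnrnpl, Hnrnpu and Rbm12b1. At 2 h, 2 of 71 were above (Lsm14a and Rbm39; background 2.44%) and 7 below (background 4.14%). At 4 h, 5 of 71 were above (Hnrnpl, Lsm14a, Snrpe, Lsm12 and Hnrnpa0; background 2.49%) and 8 below (background 4.58%). At 6 h only Srsf1 of 68 was above, against a background of 10.2%, and 7 were below, against 11.7%. Of all genes, 21.9% passed 2-fold at 6 h and 6.58% at 2 h, while the members had 11.8% and 12.7%. With 1 array at each time these shares have no test. Under natural logs or base-2 logs most of these genes would lie within 2-fold.

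Several members lay close to the 2-fold limit. Hnrnpr at 6 h was inside at -0.305, and its place among the 5 genes past 2-fold on at least 3 arrays rested on that value. Rbm12b1 at 1 h was inside at -0.31. Srsf1 at 6 h was just inside at 0.302 and Sf3a3 just outside at 0.301. At 1 h the nearest pair was Hnrnpu at -0.31 inside and Srsf1 at 0.26 outside, at 2 h Rbm39 at 0.31 and Hnrnpk at -0.30, and at 4 h Snrpc at -0.31 and Rbm6 at -0.26.

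**Figure D2:**
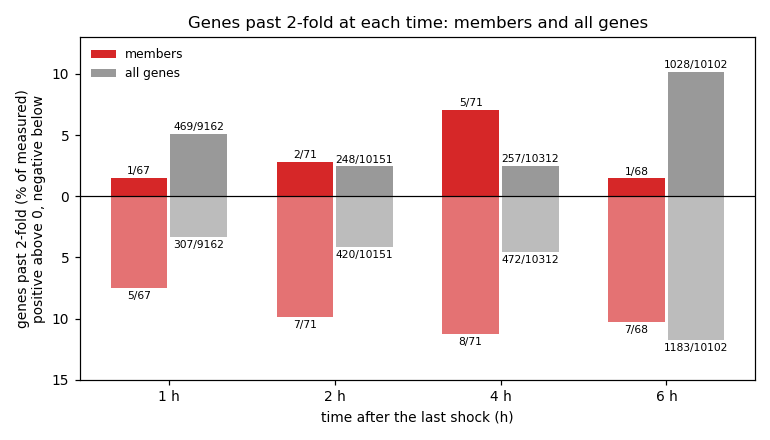
Percent of measured genes past 2-fold at each time, positive above the 0 line and negative below it, for members (red, left) and all genes (grey, right), with counts on the bars. At 4 h 5 of 71 members were positive and 8 of 71 negative, and at 6 h 1 of 68 was positive.

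Among hnRNP genes, Hnrnpr and Hnrnpk were negative throughout. Hnrnpr, which encodes a protein that binds mRNAs in neurons and their axons, was at -0.23, -0.51, -0.43 and -0.31 at 1, 2, 4 and 6 h. Its mean of -0.37 (SD 0.13, n = 4 arrays) was the lowest among members of 1 sign, and it passed 2-fold at the later 3 times. Hnrnpk, whose protein binds C-rich RNA, was at -0.14, -0.30, -0.21 and -0.22 with a mean of -0.21 (SD 0.066, n = 4 arrays). Both kept close values at the late times and the early ones. Hnrnpa1, a widely studied splicing repressor, was weakly positive on every array, at 0.073, 0.11, 0.16 and 0.070. Hnrnpa2b1, whose protein carries mRNAs along dendrites, was at 0.22, 0.16, -0.050 and 0.17.

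Hnrnpl and Hnrnpa0 swung from one side to the other. Hnrnpl, whose protein binds CA repeats and represses or promotes exons, was at -0.36, -0.093, 0.86 and -0.0013. Its 4 h value was the third highest of 10312 genes on that array, yet 2 h later the ratio was at 1. Hnrnpa0, whose protein binds AU-rich elements that control mRNA stability, was at -0.50, -0.29, 0.33 and -0.13. Hnrnpu, which encodes a nuclear scaffold protein, was likewise lowest at 1 h and highest at 4 h, at -0.31, -0.041, 0.25 and -0.083. Each of these 3 genes rested on 1 spot. Negative values were found for 8 of 12 hnRNP genes at 1 h, for 6 at both 2 and 4 h, and for 9 at 6 h. Over all genes 4548 of 9162, 5104 of 10151, 5180 of 10312 and 5191 of 10102 were negative. Of all members, 43 of 68 were negative at 6 h.

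SR protein genes were mostly positive at 1 h (5 of 7, median 0.19) and mixed afterwards, with 3 of 7 positive at each later time. The share positive over all genes was 50.4% at 1 h and 49.7%, 49.8% and 48.6% at 2, 4 and 6 h. Srsf10 encodes an SR protein that turns into a general repressor of splicing when it loses its phosphates, as in heat shock. It was at 0.19, -0.67, -0.82 and -0.96 at 1, 2, 4 and 6 h, positive at 1 h and far negative on the 3 other arrays. Among all genes it ranked 62nd from the bottom at 2 h, 36th at 4 h and 100th at 6 h. Srsf1, the SR protein that binds exonic enhancers and was among the earliest described, was at 0.26, 0.062, 0.13 and 0.30. Srsf3 was also positive on all arrays, at 0.056, 0.043, 0.10 and 0.12. Srsf5, at 0.21, -0.050, -0.38 and -0.063, and Srsf6, at 0.20, -0.0036, -0.21 and -0.055, had their low point at 4 h.

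Srsf2, which encodes the SR protein long used to mark nuclear speckles, had 3 spots. They gave -0.14, -0.063 and -0.021 at 1 h, 0.13, 0.23 and 0.19 at 2 h, 0.019, 0.073 and 0.21 at 4 h and 0.011, 0.020 and 0.0057 at 6 h. All 3 were negative at 1 h and positive at the later times. The other members with several spots were Prpf40b, Rbm7 and Snrpa1. Rbm7, part of the complex that targets RNAs to the nuclear exosome, gave -0.027 and -0.016 at 1 h, 0.10 and 0.11 at 2 h, -0.0086 and -0.088 at 4 h and 0.17 and 0.080 at 6 h. Prpf40b, whose protein joins the U1 particle, had spots at -0.32 and 0.039 at 1 h, at -0.0047 and -0.013 at 2 h, at 0.024 and -0.18 at 4 h and at -0.15 and -0.13 at 6 h. Snrpa1, a U2 protein, gave 0.16 and -0.073 at 1 h, -0.0053 and -0.052 at 2 h, 0.051 and 0.082 at 4 h and -0.0038 and 0.091 at 6 h. Over the 6 pairs of spots, the median absolute difference was 0.10, 0.041, 0.11 and 0.015 at 1, 2, 4 and 6 h. Over all genes with several spots it was 0.14, 0.14, 0.13 and 0.23. These 4 genes had small log ratios, and 67 of the 71 members, including all those past 2-fold, had 1 spot and no such check.

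**Figure D3:**
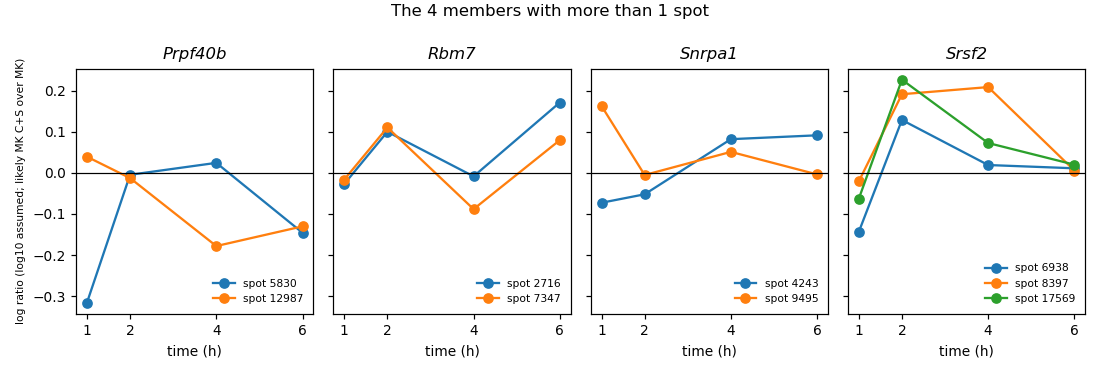
Log ratio against time for each spot of the 4 members with more than 1 spot, 1 line a spot. The 3 Srsf2 spots lie below 0 at 1 h and above 0 at 2 h, and the Prpf40b and Snrpa1 spots differ most at 1 h.

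Of the 12 Snrp genes, 1 passed 2-fold at 2 h (Snrpd2) and 2 at 4 h (Snrpe, Snrpc), or 8.33% and 16.7%, against 6.58% and 7.07% of all genes. None of those measured did at 1 or 6 h. Their median absolute log ratio was 0.045, 0.16, 0.097 and 0.068 at 1, 2, 4 and 6 h, beside 0.097, 0.096, 0.095 and 0.13 over all genes. Snrpa, the U1 protein that binds a stem loop of the U1 RNA, was at 0.025, 0.19, 0.22 and 0.22, positive on all arrays. Snrpc, the U1 protein that steadies pairing with the splice site, was at -0.096, -0.20, -0.31 and -0.021. In these values Snrpa and Snrpc, partners in the same particle, lay on opposite sides of 0 at every time. After subtraction of the running median of neighbouring spots, both were negative at 1 h, at -0.0026 and -0.013. They stayed on opposite sides at 2, 4 and 6 h. Snrpe, an Sm ring protein, was at -0.11, -0.060, 0.45 and 0.14, and Snrpd2, another, at -0.085, -0.34, -0.081 and -0.068. Snrpn, an imprinted gene of the Prader-Willi region whose Sm protein is abundant in neurons, was at 0.030, 0.25, 0.14 and 0.067. Of the 7 Sm ring genes measured, 2 were positive at 2 h and 5 each at 4 and 6 h. Over all genes 49.7%, 49.8% and 48.6% were positive at these times. The pseudogene Snrp1c-ps2 had no value at 1 h and was at 0.27, 0.057 and -0.24 later. It and its parent gene can share sequence, so its ratio is uncertain.

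In the SF3 complexes the means were negative in 4 of 4 genes with all values, beside 4611 of 8553 over all genes. That of Sf3b3 was 0.081 without the 6 h array, 0.023 with array weights and 0.011 with arrays scaled to one spread. Sf3b1, the branch-site protein hit by mutations in several blood cancers, was at -0.38, -0.14, 0.049 and -0.22. Sf3b3 was at 0.078, 0.13, 0.033 and -0.29. Sf3a3 had no value at 1 h and 0.015, 0.15 and 0.30 later, a mean of 0.15 over 3 arrays. Among Prpf genes, 1 of 9 passed 2-fold on any array, against the same 32.7% of all genes. This was Prpf4, part of the particle that holds the U4 and U6 RNAs, at 0.11, 0.12, -0.14 and -0.35. Prpf8, the protein at the centre of the catalytic core, was at -0.014, 0.28, 0.088 and 0.14. Prpf6 had values at 2 h (-0.14) and 4 h (0.043) alone.

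Lsm14a was the member with positive values of the greatest size at 1 and 2 h and in the mean. It encodes a protein of processing bodies, where untranslated mRNAs are held and decapped, and it is not part of the LSm ring. It was at 0.51, 0.40, 0.45 and 0.23, or 3.25-fold, 2.48-fold, 2.84-fold and 1.71-fold under base 10. The ring genes Lsm1 to Lsm7 were within 2-fold at every time. Of all genes with values on at least 2 arrays, 32.7% passed 2-fold on at least 1. In the ring, 5 of 7 genes were negative at 2 h and 5 of 7 positive at 4 h. Over all genes 5104 of 10151 were negative at 2 h and 5132 of 10312 positive at 4 h. Lsm5, which belongs to both ring forms, was at -0.13, -0.27, -0.081 and -0.086. Lsm11, a subunit of the U7 particle for histone mRNA ends, was at 0.062, -0.11, -0.20 and -0.36. Lsm12 had no value at 1 h and was at -0.35, 0.42 and -0.64 later, past 2-fold in both directions.

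Rbm genes were more often negative at the late times than at the early ones. Positive values were found for 8 of 15 at 1 h, 9 of 15 at 2 h, 4 of 15 at 4 h and 3 of 13 at 6 h. Over all genes 50.4%, 49.7%, 49.8% and 48.6% were positive, and over all members 36.8% were at 6 h. Rbm3, a cold-induced gene known in mice for keeping synapses during cooling, was at -0.24, -0.14, -0.37 and -0.23, negative on all arrays. Rbm18 was at 0.12, 0.13, 0.12 and 0.16, with a spread of 0.022 (SD, n = 4 arrays). Rbm8a, a core protein of the exon junction complex that marks spliced mRNAs, was at 0.14, 0.0025, -0.050 and -0.64. Rbm5, a tumour suppressor that acts on exons of apoptosis genes, was at 0.099, 0.21, -0.18 and -0.18. Rbm39, a splicing factor related to U2AF, was at -0.080, 0.31, -0.11 and -0.041. Rbm33 was at 0.12, -0.93 and -0.92 at 1, 2 and 4 h and Rbm46os at -0.22, -0.85 and -0.78, and both had no value at 6 h, so the fits on genes with 4 values left them out. In the fit on genes with at least 3 values, their means were -0.58 and -0.62 with limma adjusted p of 0.464 and 0.460.

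Nova1, the neuronal factor that binds YCAY clusters in synaptic transcripts, had the lowest value of the set. It was at 0.0036, -0.33, -0.54 and -2.12 at 1, 2, 4 and 6 h, lower on each later array. The 6 h value was the second lowest of 10102 genes and would be 131-fold under base 10, from 1 spot with no replicate. Spots numbered around it had a running median above 0 at 1 h and below 0 at 2, 4 and 6 h. After subtraction of the running median of 51 spots in number order, Nova1 was at -0.051, -0.20, -0.37 and -1.78. The same subtraction gave -0.28, -0.41, -0.31 and -0.24 for Hnrnpr and 0.13, -0.72, -0.81 and -0.84 for Srsf10. The signs of all 3 genes at 2, 4 and 6 h were kept, but Nova1 at 2 h and Hnrnpr at 6 h came within 2-fold. Some small values of genes positive on every array changed sign. Hnrnpa1 at 6 h was then at -0.062, Srsf3 at 2 h at -0.027, and Snrpa and Snrpn at 1 h at -0.0026 and -0.0079.

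**Figure D4:**
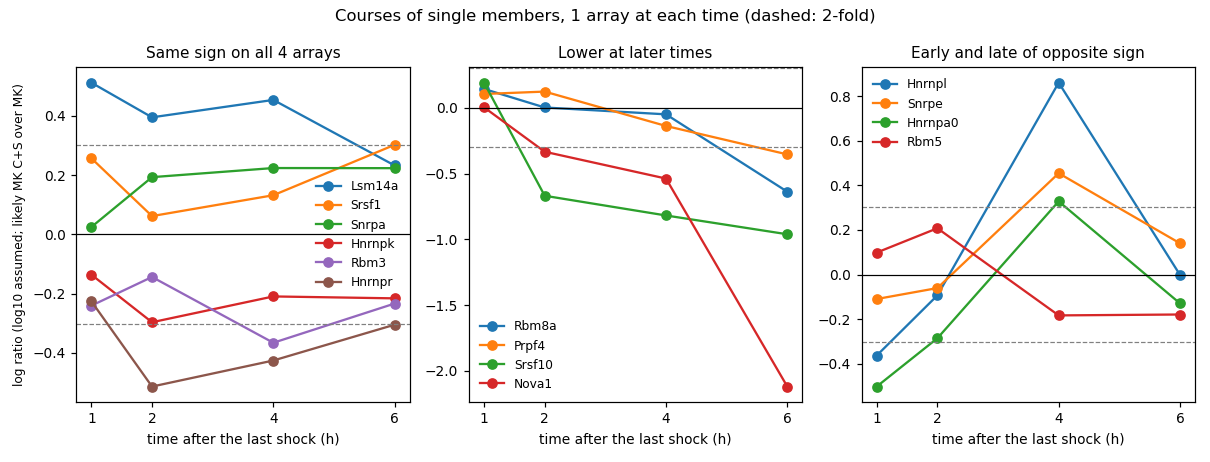
Log ratio against time for single members, 1 array at each time, with dashed lines at 2-fold. Left, 6 genes of 1 sign throughout, centre, 4 genes with a negative slope, and right, 4 genes whose early and late means lie on opposite sides of 0. Nova1 reaches -2.12 at 6 h and Hnrnpl peaks at 0.86 at 4 h. The vertical scales differ.

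Promoter windows are printed for the member with the highest mean of 1 sign (Lsm14a), the lowest (Hnrnpr) and the pair that was lowest at 6 h (Srsf10, Nova1). They come from RefSeq on GRCm38.p6 and run from 250 bases before a gene's start to 50 after it, along the gene's strand. The windows are chr7:34389656-34389955 on the minus strand (Lsm14a), chr4:136310692-136310991 on the plus strand (Hnrnpr, 1 of 2 windows), chr4:135855821-135856120 on the plus strand (Srsf10) and chr12:46818718-46819017 on the minus strand (Nova1). Capitals mark matches on either strand to CTCGCGAG, a palindrome, to the CCAAT box, to the cAMP response element TGACGTCA and to TATAAA.
Lsm14a: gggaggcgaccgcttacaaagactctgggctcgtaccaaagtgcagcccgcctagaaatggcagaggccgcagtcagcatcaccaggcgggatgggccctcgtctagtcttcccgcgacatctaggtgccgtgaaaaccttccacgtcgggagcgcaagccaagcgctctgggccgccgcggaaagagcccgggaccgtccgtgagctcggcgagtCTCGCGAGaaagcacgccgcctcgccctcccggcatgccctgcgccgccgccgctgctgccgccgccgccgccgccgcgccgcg
Hnrnpr: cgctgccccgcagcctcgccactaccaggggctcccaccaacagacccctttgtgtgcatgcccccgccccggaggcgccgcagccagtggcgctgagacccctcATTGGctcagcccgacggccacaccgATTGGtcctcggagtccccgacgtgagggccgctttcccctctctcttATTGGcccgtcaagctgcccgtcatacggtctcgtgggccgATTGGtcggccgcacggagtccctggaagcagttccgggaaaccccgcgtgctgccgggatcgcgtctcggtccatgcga
Srsf10: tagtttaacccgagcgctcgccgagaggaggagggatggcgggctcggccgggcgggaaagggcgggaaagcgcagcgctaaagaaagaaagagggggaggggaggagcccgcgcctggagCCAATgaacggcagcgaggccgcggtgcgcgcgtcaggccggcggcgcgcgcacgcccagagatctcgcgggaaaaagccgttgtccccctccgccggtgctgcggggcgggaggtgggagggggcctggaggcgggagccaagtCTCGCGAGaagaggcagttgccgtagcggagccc
Nova1: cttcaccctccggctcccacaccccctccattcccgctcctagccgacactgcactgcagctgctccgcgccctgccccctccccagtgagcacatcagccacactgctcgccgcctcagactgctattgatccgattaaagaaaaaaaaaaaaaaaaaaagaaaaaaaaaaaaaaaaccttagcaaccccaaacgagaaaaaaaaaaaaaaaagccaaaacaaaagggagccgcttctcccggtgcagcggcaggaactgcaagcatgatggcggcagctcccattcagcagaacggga

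CTCGCGAG stood once each in the Lsm14a and Srsf10 windows, from bases 217 and 267, genes whose log ratios were of opposite sign at 2, 4 and 6 h. The Hnrnpr window held 4 CCAAT boxes on its opposite strand, from bases 106, 132, 180 and 221, and the Nova1 window held none of the 4 motifs. In all, 61 of the 71 members had 78 windows, of which 4 held CTCGCGAG (5.13%), 36 CCAAT (46.2%), 3 TGACGTCA (3.85%) and 10 TATAAA (12.8%). Among 10754 windows of genes on the array the shares were 1.36%, 37.6%, 2.23% and 10.9%, and among all 32851 windows 0.919%, 37.4%, 1.79% and 13.6%. The other members with CTCGCGAG were Hnrnph1 and Rbm39, whose means were 0.0071 and 0.021. These matches are a description of sequence and no measure of binding.

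Averaging over times asked which members had an average log ratio away from 0, and the spread between times served as the error. The same sign on all 4 arrays was found for 20 of 65 members. Of these, 9 were positive (background 10.1%) and 11 negative (background 11.8%). In limma's moderated test 0 of 65 members passed an adjusted p of 0.05, as did 0% of all 8553 genes. At an unadjusted p under 0.05 there were 10 of 65 members, 4 positive and 6 negative, against a background of 11.4% of all genes. The positive ones numbered 1 without the 6 h array, beside 7 negative, and 1 beside 6 with the running median of 51 spots subtracted. The 10 were Lsm14a, Srsf1, Snrpa and Rbm18 above 0 and Hnrnpr, Rbm3, Hnrnpk, Srsf10, Lsm5 and Snrpc below.

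Lsm14a had a mean of 0.40 ± 0.062 (limma's SE, n = 4 arrays) with a limma adjusted p of 0.379 and was positive on 4 of 4 arrays. Hnrnpr had a mean of -0.37 ± 0.064 with the same limma adjusted p of 0.379, negative on 4 of 4. Rbm3 at -0.25 ± 0.056 and Hnrnpk at -0.21 ± 0.052 both had a limma adjusted p of 0.416. Srsf1 at 0.19 ± 0.060, Srsf10 at -0.56 ± 0.18 and Snrpa at 0.17 ± 0.057 had a limma adjusted p of 0.427. The Nova1 mean was -0.75 ± 0.32 with a limma adjusted p of 0.450, and without the 6 h array it was -0.29. Means of Lsm14a stayed between 0.36 and 0.45 and those of Hnrnpr between -0.41 and -0.32 when any 1 array was left out.

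**Figure D5:**
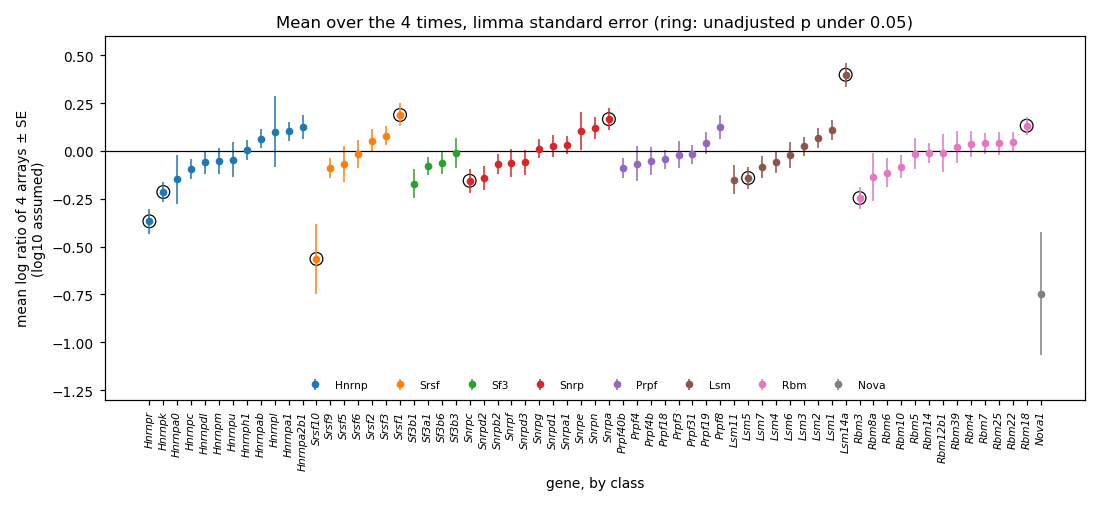
Mean log ratio over the 4 times for the 65 members with a value on every array, by class, with limma's standard error as bars. Rings mark the 10 genes at an unadjusted p under 0.05, and none passed after adjustment. Lsm14a is highest at 0.40, and Nova1 is lowest at -0.75 with a wide bar.

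A slope on hours asked whether the log ratio moved with time. Here 0 of 65 members passed limma's test at an adjusted p of 0.05 (0% of all genes). At an unadjusted p under 0.05 there were 6, against a background of 14.6% of all genes, and all 6 were negative: Nova1, Rbm8a, Prpf4, Srsf10, Lsm11 and Sf3b3. Without the 6 h array there were 9, of which 5 were positive and 4 negative. Of the 1250 genes at that level on the whole array, 853 were negative. Nova1 had a slope of -0.39 ± 0.066 log units per h (limma's SE, n = 4 arrays) with a limma adjusted p of 0.113. Rbm8a followed at -0.14 ± 0.035 per h with a limma adjusted p of 0.153, Prpf4 at -0.10 ± 0.027 with 0.174 and Srsf10 at -0.19 ± 0.057 with 0.192. Without the 6 h array the slopes of Nova1, Rbm8a and Sf3b3 were -0.17, -0.059 and -0.020, and without the 1 h array that of Srsf10 was -0.073. Without the 4 h array both passed, Nova1 at -0.43 per h with a limma adjusted p of 0.000623 and Rbm8a at -0.16 with 0.0240, in a fit on 3 arrays that called 4.67% of all genes. The most positive slopes by the moderated t were those of Lsm6, Hnrnpa0 and Snrpe, at 0.051, 0.093 and 0.071 per h. Without the 6 h array these were 0.11, 0.28 and 0.20, and without the 1 h array 0.031, 0.039 and 0.050.

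Setting the late times (4 and 6 h) against the early ones (1 and 2 h) gave 0 of 65 members at a limma adjusted p under 0.05 (0% of all genes). At an unadjusted p under 0.05 there were 4, against a background of 6.83%. Hnrnpa0 averaged 0.10 late and -0.39 early, and Snrpe 0.30 late and -0.085 early. Rbm5 averaged -0.18 late and 0.15 early, and Prpf4 -0.25 late and 0.11 early. The limma adjusted p was 0.682 for each of these 4. Without the 4 h array the difference of Hnrnpa0 was 0.26, against 0.49 with it, and its late value was then -0.13. That of Snrpe was 0.23 without the 4 h array, against 0.38 with it. Nova1 averaged -1.33 late and -0.17 early, and without the 4 h array its difference of -1.95 passed at a limma adjusted p of 0.00906, in a fit that called 1.71% of all genes. Without the 6 h array it was -0.37, against -1.16 with all arrays. Late minus early was negative in 10 of 13 Rbm genes and 7 of 8 Prpf genes and positive in 6 of 7 genes of the LSm ring, beside 4634 negative and 3919 positive among all genes. The medians of these 3 sets were -0.12, -0.037 and 0.095, beside quartiles of -0.13 and 0.090 over all genes. In the other classes it was positive in 7 of 12 Hnrnp, 4 of 7 Srsf, 3 of 4 Sf3, 7 of 11 Snrp and 6 of 9 Lsm genes.

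Splicing factors that the symbol rule leaves out were listed separately, and 92 of 143 listed were named on the array. The list did not hold Snrnp70, a U1 protein that the rule also leaves out, which was at -0.42 at 6 h. The listed factors lay near a ratio of 1 as well, with medians of -0.0091, 0.0061, -0.021 and -0.053 at 1, 2, 4 and 6 h. At 6 h, 3 of 90 were above 2-fold and 10 below, against 10.2% and 11.7% of all genes. In the mean over times 0 of 88 passed limma's test after adjustment, and 12 had an unadjusted p under 0.05, 3 positive and 9 negative, against 11.4% of all genes. The lowest means were those of Pspc1, a paraspeckle protein (-0.27), Prcc (-0.26) and Elavl2, a neuronal RNA-binding protein (-0.24). The highest were those of Bcas2, a subunit of the Prpf19 complex (0.21), Clk3, a kinase of SR proteins (0.15), and Acin1, a protein found with the exon junction complex (0.15).

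Markers of other cells and regions were read on the same arrays. Choroid plexus markers were positive in 6 of 7 genes at 1 h (median 0.49), where Ttr had no value and Kl was negative. They were positive in 4 of 8 at each of 2, 4 and 6 h (medians -0.014, -0.0011 and -0.025). Ttr was then at -0.66, -1.27 and -0.12. CA3 pyramidal cell markers were negative in 4 of 5 genes at 1 h (median -0.18), and endothelial and mural markers in 7 of 10 (median -0.13). At that time Srsf10 was at 0.19 and Nova1 at 0.0036. At 2 h, when Hnrnpr was lowest and Srsf10 was already far negative, CA3 markers were negative in 4 of 5 (median -0.31). Endothelial and mural markers were then negative in 8 of 10 (median -0.22, 4 of them past 2-fold). At 4 h, the time with the most members past 2-fold, CA3 markers were negative in 5 of 5 (median -0.42) and endothelial and mural markers in 8 of 10 (median -0.13). At 6 h, when Nova1 and Srsf10 were lowest, these medians were -0.23 and -0.060. Dentate granule cell markers were at 0.0020 and 0.25 at 4 and 6 h (2 genes), astrocyte markers at 0.050 and 0.097 (7 genes), oligodendrocyte markers at 0.091 and 0.093 (5 genes) and microglia markers at 0.10 and 0.14 (7 genes). Elavl2 stands in both the CA3 list and the list of other splicing factors. The part of these cells in the members' values was not tested.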

How the data were processed

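RNA from CA1 was hybridised to 4 arrays with 2 dyes, 1 at each time, and samples were grouped by time as labelled. The deposited table holds 1 log ratio for each spot, taken here as log10. No source names the base, direction, scanner or the authors' normalization. Exact zeros (22.7%, 9.34%, 7.39% and 10.0% of spots at 1, 2, 4 and 6 h) were set to missing, and the median of the rest (0.0055, -0.00038, 0.00073 and -0.0054) was subtracted. Each deposited column had a median of 0. A platform annotation named spots. The 52 spots with several genes (1 of them with a gene matching the rule) and 2491 unnamed spots were left out. Entrez identifiers of all 71 members matched RefSeq, with 0 symbols changed. Measured spots of 1 gene were averaged.

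Mean, slope on hours and late minus early were fitted by limma 3.58.1 under R 4.3.3 (lmFit, then eBayes) on the 8553 genes with 4 values, two-sided, with Benjamini-Hochberg adjustment over all of them. The fits were tested on simulated data. Because nothing says how many animals were used, p-values measure only the spread between these arrays, and their number limits the precision.

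The members, lists and tests were chosen with earlier results of these data known. Named genes were the 3 highest and 3 lowest at each time, the 5 highest and 5 lowest means of 1 sign, the 3 most positive and negative slopes and late-minus-early terms, the extremes of each class, Nova1, Snrpn, Hnrnpa1, Hnrnpk, Srsf1 and Sf3b1, genes with several spots or missing values, and the 3 highest and lowest means of the other splicing factors. Members outside this rule, such as Hnrnpu, Srsf3, Srsf5, Srsf6, Lsm5, Rbm6 and Rbm12b1, were named after their values were seen. Alternatives covered the size threshold, log base, centring, zeros, spot summary, neighbouring spots, scaling, weights, filters and leaving out each array.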

Additional observations from a re-analysis of the deposited data

How the results depend on the processing

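Of the alternative values for the members' counts and medians, 128 stayed within a set margin and 24 did not. For a count the margin was 1.5 times in either direction. For a median it was the pooled SD between spots of 1 gene over all genes, divided by the square root of the number of members measured. The medians at the 4 times stayed within that margin under all alternatives run for them. Member counts past 2-fold were 6, 9, 13 and 8 of 67, 71, 71 and 68 measured at 1, 2, 4 and 6 h. Over all genes 8.47%, 6.58%, 7.07% and 21.9% passed. At 1.5-fold the member counts were 16, 22, 23 and 19, where 25.1%, 24.2%, 23.1% and 39.9% of all genes passed. At 3-fold they were 2, 4, 5 and 4, against 2.47%, 1.73%, 1.73% and 10.8%. Natural logs gave 0, 2, 4 and 2, against 0.753%, 0.581%, 0.630% and 4.34%. Base-2 logs gave 0, 0, 0 and 1, against 0.240%, 0.227%, 0.223% and 0.921%, so the counts depend on the unstated base. With arrays scaled to one spread the 6 h count was 4, against 15.2% of all genes. In limma's mean over times, the count after adjustment was 0 in all fits, and the 10 members at an unadjusted p under 0.05 became 5 to 10 with 1 array left out, lowest without the 2 h array. Its positive part was 1 to 3, against 4 with all arrays. For the slope, leaving out 1 array gave 0 to 2 members after adjustment (both without the 4 h array) and 4 to 9 unadjusted, and 3 with arrays scaled. All unadjusted slope calls were negative except 5 of 9 without the 6 h array and 1 of 7 with exact zeros kept. For late minus early it gave 0 to 1 and 2 to 5, and 2 unadjusted with exact zeros kept. Some means changed sign. With all arrays those of Hnrnpl and Rbm8a were 0.10 and -0.14, outside the quartiles of the member means (-0.084 and 0.041). Without the 4 h array those of Hnrnpl, Rbm5 and Snrpe were -0.15, 0.043 and -0.0099, and without the 6 h array those of Prpf4, Rbm5, Rbm8a and Sf3b3 were 0.030, 0.041, 0.032 and 0.081. Lsm6 was at 0.036 without 1 h, Rbm39 at -0.077 without 2 h, and Sf3b3 at 0.023 with array weights and 0.011 with arrays scaled. With 1 array left out, means ranged up to 0.26 for Hnrnpl, 0.064 for Rbm39 and 0.18 for Snrpe, and down to -0.072 for Lsm6, -0.13 for Prpf4, -0.088 for Rbm5, -0.23 for Rbm8a and -0.060 for Sf3b3. The cause was not tested. No paired analysis was possible because each time has 1 array and the labels number no replicates. Spot brightness was not analysed here, so its limit on these ratios is unknown.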

Other observations

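Between arrays, the log ratios of the 65 members with 4 values had a Spearman correlation of 0.54 at 4 against 6 h, 0.43 at 2 against 6 h and 0.33 at 2 against 4 h, beside 0.33, 0.20 and 0.30 over 8553 genes. At 1 against 4 h it was -0.12, beside -0.020 over all genes. These correlations are across genes, which are not independent replicates, and the arrays share their spots and dye orientation.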
